A study of Mus musculus with 18 samples.

Results

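The complement system is the set of plasma proteins and receptors that tags microbes for uptake, calls in leukocytes and punches pores in membranes. The 33 genes described here were chosen by name as its core members, and expression in mouse liver and in RAW264.7 cells, a mouse macrophage line, was taken for each from 1 table of 21441 genes per tissue. A row was found for 32 of the 33 genes in both tables, and the remaining gene, C7, was not analysed here. Genes were tested where their FPKM averaged more than 1 across a table's 9 libraries, which held for 30 of the 33 genes in liver and 9 in macrophages. The members were grouped by role into 8 genes of recognition and the classical pathway (C1qa, C1qb, C1qc, C1ra, C1s, C2, C4a, C4b), 4 of the lectin pathway (Mbl1, Mbl2, Masp1, Masp2), 4 for C3 and the alternative pathway (C3, Cfb, Cfd, Cfp), 7 of the terminal pathway (Hc, which encodes C5, with C6, C7, C8a, C8b, C8g, C9), 8 regulators (Cfi, C4bp, Serping1, Cd55, Cd59a, Cd46, Vtn, Clu) and the 2 anaphylatoxin receptors C3ar1 and C5ar1.

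The study asked how Moringa isothiocyanate-1 (MIC-1), an isothiocyanate from moringa seeds, alters the response to lipopolysaccharide (LPS), the outer membrane component of Gram-negative bacteria. Liver came from wild type C57BL/6 mice, male by the methods and with no age given. The control mice were injected with saline and the LPS mice received LPS at 10 mg/kg intraperitoneally. The LPS+MIC-1 mice were gavaged with MIC-1 at 80 mg/kg in 10% DMSO for 3 days before the same LPS injection. The sample records give an extract with 38.9% MIC-1, whereas the paper describes MIC-1 purified from seed extract. Which of these was given is not settled here. By the paper, gavage was with MIC-1 or vehicle, and the control group is listed as 10% DMSO vehicle. All were killed 16 h after the injection, and 3 libraries per group were deposited from groups of 6 mice. No group analysed here received MIC-1 alone, so each MIC-1 value here is one taken in the presence of LPS. The RAW264.7 libraries were likewise 3 control, 3 LPS and 3 LPS+MIC-1, with MIC-1 at 10 µM in the series design, whereas the labels of these samples repeat the mouse doses, and the LPS concentration was not given for the sequenced cultures. RAW264.7 is a single transformed line, and doses and routes differed from those in mice. Nothing shows whether its libraries came from separate cultures, so p-values measure the spread between these libraries, which may be technical.

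The columns carried the treatment without a replicate number, and libraries are numbered here by their order within a treatment. The FPKM values, which count fragments relative to transcript length and sequencing depth, summed to between 590303 and 1063784 per liver library and between 557136 and 1137533 per macrophage library. The authors' mean normalized counts summed to 11026689 in liver and 19645778 in macrophages, and 1 FPKM corresponded to a median of 22.1 and 45 counts among the members, so values well below 1 FPKM rest on few fragments. Libraries 1 and 3 of the LPS and of the LPS+MIC-1 group stood close together in both tables, and their squared differences over genes with 500 to 2000 estimated reads were 2.22 to 7.69 times the sampling variance in liver and 1.89 to 3.20 times in macrophages. With library 2 of the same group they were 49.6 to 120 times in liver, and in macrophages 207 to 213 times for LPS and 15.1 to 16.2 times for LPS+MIC-1. Liver LPS library 2 had a Pearson correlation of 0.9475 with LPS+MIC-1 library 2, against 0.8888 and 0.8930 with LPS libraries 1 and 3. LPS+MIC-1 library 2 stood at 0.9349 and 0.9319 with LPS+MIC-1 libraries 1 and 3. The fits held no term for this. Liver control library 1 stood 89.1 and 109 times apart from controls 2 and 3, which were 8.19 times apart from each other. In the macrophage table LPS library 2 had values close to those of the controls, so each macrophage result is given for all 9 libraries and for the 8 without it. The study's own macrophage analysis used fewer LPS libraries than the table holds, and which was left out is not given in the sources used here. The hepatocyte markers listed for the check were all 8 above 1 FPKM in liver, and RAW264.7 cells carried Lyz2 at 8726 to 10746 FPKM with Alb at 1.09 to 5.46 FPKM. Log2FC values below are differences of mean log2(FPKM + 0.5) with their standard errors, which understate changes at low FPKM, and a gene was called at an adjusted p-value below 0.05 in limma.

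Complement is started by C1q bound to antibody, by mannose-binding lectins bound to microbial sugars, or by slow turnover of C3 that factor B amplifies. All routes meet at C3, whose cleavage leads on to C5 and to a pore built from the last components, while soluble and membrane-bound regulators restrain the enzymes on host cells. The hepatocyte makes most of the plasma proteins and raises many of them in the acute phase response, whereas C1q is known mainly as a product of macrophages.

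Many of the genes lie side by side. In mm9, C1qb, C1qc and C1qa lie within chr4:136436044-136454718, C8b and C8a are neighbours within chr4:104438922-104549003, and Cfb (chr17:34993319-34999463) ends just before C2 (chr17:34999549-35035397), with C4b and C4a on the same chromosome 17. C3 lies elsewhere on that chromosome (chr17:57343397-57367559). Several share sequence with another gene, so that read assignment could split them. Of all 31-base stretches in their transcripts, C4a shared 39.7% with C4b and C4b 48.3% with C4a, C1ra shared 50.1% with C1rb, and C1s shared 36.8% with Gm5077. Cfb shared 76.3% and C2 47.4% with Gm20547. The figures were 12.9% for Cd55 with Daf2 and 8.23% for Cd59a with Cd59b. These stretches came from GENCODE transcripts, whereas the authors assigned reads to a RefSeq index, in which the overlaps were not checked. How reads were divided for these genes is therefore uncertain.

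Promoter sequence is shown for 6 members called in liver, picked because their windows held letters searched for below. It is also shown for Vtn, called as well, whose window held none. RefSeq start sites (GRCm38.p6) were at hand for 24 of the 33 genes, and the 250 bases before each start were searched on both strands for letters of NF-kB (GGGA, any 4 bases, CC), C/EBP (TTNNGNAA), STAT (TTCNNNGAA) and the interferon response (GAAA, any 2 bases, GAAA). Capitals mark matches. Cd59a was lower with LPS and the others were higher.
C3, chr17:57228137-57228386 (- strand): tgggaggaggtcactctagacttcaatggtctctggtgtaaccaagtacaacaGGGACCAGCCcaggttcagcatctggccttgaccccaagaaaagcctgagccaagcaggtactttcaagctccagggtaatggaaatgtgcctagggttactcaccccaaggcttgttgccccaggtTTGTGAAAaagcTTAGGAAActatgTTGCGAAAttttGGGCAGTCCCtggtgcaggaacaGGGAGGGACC
C1qb, chr4:136886201-136886450 (- strand): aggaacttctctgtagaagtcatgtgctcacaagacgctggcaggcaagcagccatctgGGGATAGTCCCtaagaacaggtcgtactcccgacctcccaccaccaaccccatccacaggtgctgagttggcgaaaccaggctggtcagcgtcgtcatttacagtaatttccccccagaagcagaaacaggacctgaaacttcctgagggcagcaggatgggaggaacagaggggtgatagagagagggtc
C4bp, chr1:130661619-130661868 (- strand): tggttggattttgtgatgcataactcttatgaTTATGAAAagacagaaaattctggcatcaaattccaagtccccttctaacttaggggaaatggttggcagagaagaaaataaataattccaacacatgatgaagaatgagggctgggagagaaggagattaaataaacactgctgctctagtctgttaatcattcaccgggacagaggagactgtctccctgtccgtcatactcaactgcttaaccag
Cd55, chr1:130462745-130462994 (- strand): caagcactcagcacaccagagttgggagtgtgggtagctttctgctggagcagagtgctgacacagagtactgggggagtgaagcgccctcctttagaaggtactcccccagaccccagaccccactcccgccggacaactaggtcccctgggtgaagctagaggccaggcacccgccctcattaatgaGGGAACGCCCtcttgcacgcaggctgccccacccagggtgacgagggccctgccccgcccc
C5ar1, chr7:16259339-16259588 (- strand): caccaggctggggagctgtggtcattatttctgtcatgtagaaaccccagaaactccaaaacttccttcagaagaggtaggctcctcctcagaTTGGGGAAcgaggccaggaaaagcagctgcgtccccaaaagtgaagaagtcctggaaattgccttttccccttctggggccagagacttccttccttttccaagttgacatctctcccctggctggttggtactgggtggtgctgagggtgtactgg
Cd59a, chr2:104095551-104095800 (+ strand): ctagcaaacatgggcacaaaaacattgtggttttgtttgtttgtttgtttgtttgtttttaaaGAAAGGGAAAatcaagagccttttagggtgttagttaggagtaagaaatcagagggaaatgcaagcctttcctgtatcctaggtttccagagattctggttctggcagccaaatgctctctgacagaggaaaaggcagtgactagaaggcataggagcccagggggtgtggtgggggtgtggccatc
Vtn, chr11:78498870-78499119 (+ strand): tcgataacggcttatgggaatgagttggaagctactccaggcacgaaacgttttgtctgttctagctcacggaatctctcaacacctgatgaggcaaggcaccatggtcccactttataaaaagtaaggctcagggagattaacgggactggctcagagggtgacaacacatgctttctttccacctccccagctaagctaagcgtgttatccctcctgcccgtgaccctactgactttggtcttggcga
The C3 window held 6 matches, 3 for NF-kB and 3 for C/EBP, with the last of these NF-kB matches ending at the base before the start. C1qb held a pair of overlapping NF-kB matches, 1 on each strand, Cd55 held an NF-kB match, C4bp and C5ar1 each a C/EBP match, and Cd59a an interferon response match. Of 10 members called with LPS in liver that had a window, 8 held a match and 2, Mbl1 and Vtn, held none. Among the other members with a window, C1s, C6, C7, C8a, C8b, C9 and Masp2 also held matches. The share of all windows with a match of any kind was not computed. NF-kB letters were found in 5 of the 24 member genes against 17.7% of all 32536 windows, and C/EBP letters in 10 of 24 against 36.8%. STAT letters were in 3 of 24 against 7.04% and interferon response letters in 1 of 24 against 2.98%. The units differ, because a member gene counted if any of its windows held the letters, whereas the percentages count windows. C1s and C8g had more than 1 window, and the NF-kB letters of C1s were in only 1 of its windows. A match is a description of the letters and not a bound site.

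In liver, LPS was accompanied by higher expression of C3, of C1q and of most soluble regulators. By limma, 14 of the 30 tested members differed between LPS and control at an adjusted p-value below 0.05, 13 higher and 1 lower, where 34.7% of all 10147 tested genes were called, 19.2% higher and 15.5% lower. The median Log2FC over the 30 members was 0.91, against 0.15 over all tested genes. The 3 control libraries and the 3 LPS libraries did not overlap for 17 members, 16 of them higher with LPS, where 45% of all tested genes did not overlap with 24.2% higher and 20.8% lower. For a single gene an exact permutation test of 3 against 3 libraries cannot go below p = 0.1, the value for each of those 17 genes. All members together made up 0.724 to 0.900% of the summed FPKM in the control, 1.40 to 1.70% in the LPS and 1.32 to 1.54% in the LPS+MIC-1 libraries. In whole tissue, fewer cells of a type and less RNA per cell cannot be told apart.

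**Figure D1:**
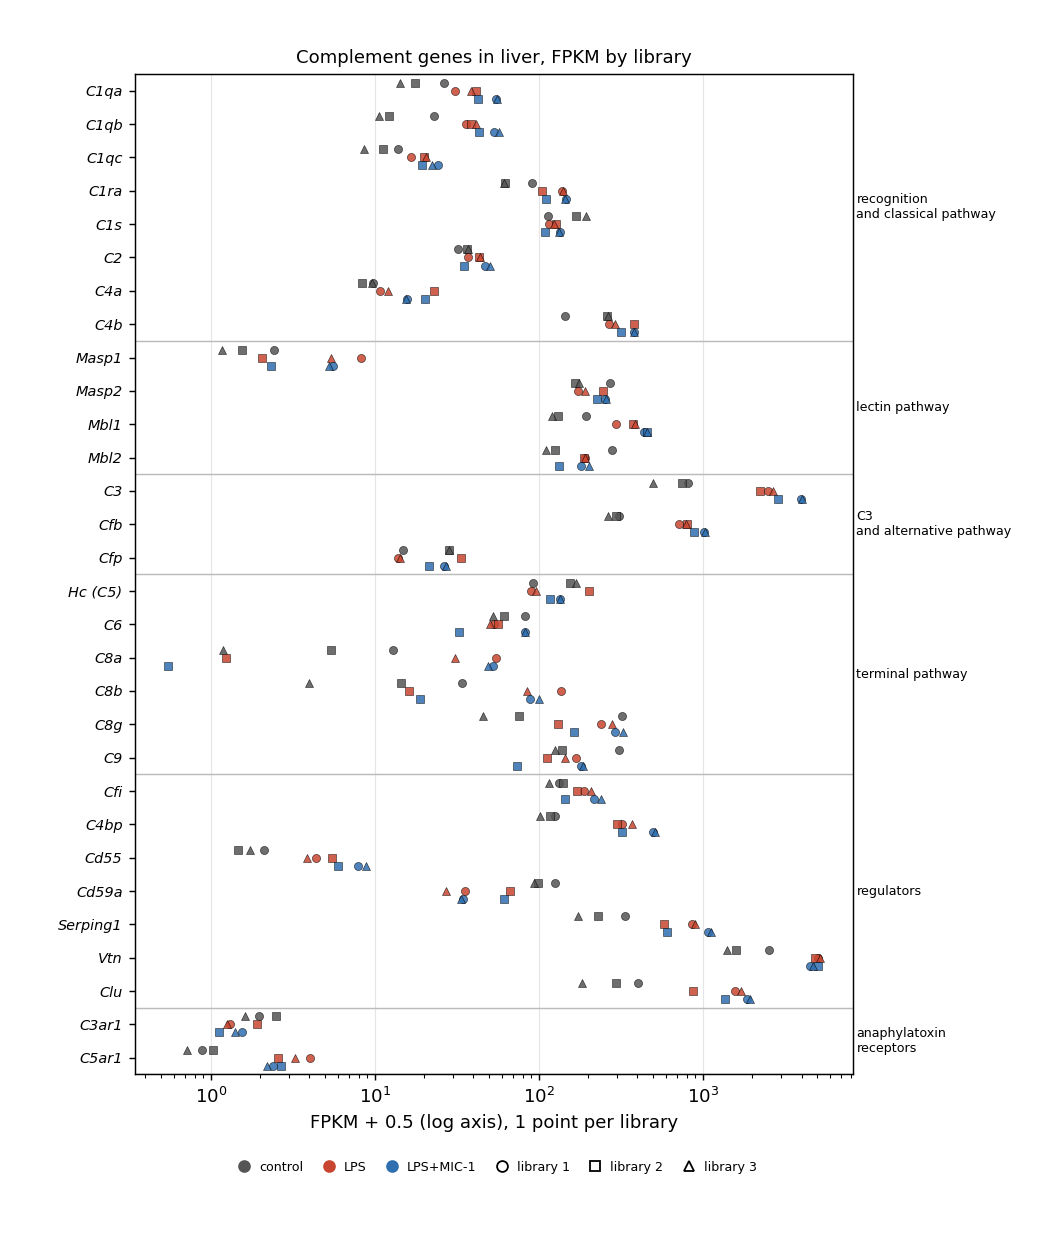
FPKM + 0.5 on a log axis for the 30 complement genes tested in liver, ordered by role, with 1 point per library, colours for the 3 groups and shapes for the library number. The LPS and LPS+MIC-1 points lie above every control point for genes such as C3, Cfb, C4bp, Vtn and Clu and below them for Cd59a, and library 2 stands apart for C8a and C8b.

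C3, the component on which all routes converge, was among the most abundant. It stood at 815, 742 and 499.9 FPKM in the controls, 2496, 2237 and 2672 after LPS, and 3981, 2857 and 4025 after LPS+MIC-1, so that every LPS library lay above every control library (1.87 ± 0.26, adjusted p = 0.00262). Cfb, the factor that forms the C3 convertase of the alternative pathway, was at 307, 294 and 264 FPKM in the controls, 721, 800.2 and 787 after LPS, and 1013, 882 and 1035 after LPS+MIC-1. The groups did not overlap here either, and the Log2FC with LPS was 1.41 ± 0.17, adjusted p = 0.0016. Properdin, encoded by Cfp, stabilises that convertase, and its values of 14.3, 27.7 and 27.8 FPKM in the controls, 13.4, 33.1 and 13.7 after LPS, and 25.8, 20.9 and 26.8 after LPS+MIC-1 overlapped between groups (-0.28 ± 0.39, adjusted p = 0.589). Cfd, the protease that cleaves factor B and a product mainly of fat, was listed at 0 in 8 of 9 liver libraries. Aif1, a macrophage gene, was also listed at 0 in most RAW264.7 libraries, and whether an exact 0 is a failed estimate was not tested.

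The 3 chains of C1q rose together with LPS. C1qa was at 25.9, 17.2 and 13.9 FPKM in the controls, 30.3, 40.9 and 38.0 after LPS, and 54.5, 42.3 and 55.5 after LPS+MIC-1. For C1qb the values were 22.5, 11.8 and 10.1 FPKM in the controls, 35.3, 38.3 and 41.1 after LPS, and 52.9, 42.6 and 56.8 after LPS+MIC-1, and for C1qc 13.3, 10.8 and 8.11 FPKM in the controls, 16.1, 19.6 and 20.0 after LPS, and 23.7, 19.0 and 22.0 after LPS+MIC-1. The control and LPS libraries were separate for all 3 chains, with Log2FC values of 0.96 ± 0.25, adjusted p = 0.0214, of 1.42 ± 0.29, adjusted p = 0.00873 and of 0.78 ± 0.21, adjusted p = 0.0223. The C1qa and C1qc calls were lost without control library 2, control library 3 or LPS library 3, and the C1qc call also when FPKM was rescaled to the same sum. Kupffer cell markers, all 5 above 1 FPKM, summed to 29.2 to 51.0 FPKM in the control, 36.9 to 53.9 in the LPS and 50.9 to 96.1 in the LPS+MIC-1 libraries. Markers of macrophages in general, of which 4 of 8 passed 1 FPKM and Aif1 was at 0, summed to 19.9 to 38.5, 48.3 to 57.9 and 32.2 to 73.0 FPKM in the same order. Members of the Kupffer list moved apart. Marco, a scavenger receptor, was at 2.18 to 6.79 FPKM in the control, 23.1 to 40.4 in the LPS and 38.4 to 75.6 in the LPS+MIC-1 libraries, while Clec4f was at 13.0 to 30.1, 2.85 to 6.32 and 4.33 to 4.83 FPKM in that order, and Vsig4, a receptor for C3 fragments, was at 3.02 to 6.70 FPKM in the control and 1.22 to 1.50 in the LPS libraries. The part of these cells in the C1q values was not tested.

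Of the proteases of C1, C1ra was called and C1s was not. C1ra, which encodes C1r, was at 90.3, 61.5 and 60.5 FPKM in the controls, 138, 104 and 139.7 after LPS, and 147, 109.7 and 145 after LPS+MIC-1, higher in every LPS library than in the control libraries (0.85 ± 0.23, adjusted p = 0.024). The call for C1ra was lost without control library 2, control library 3, LPS library 1 or LPS library 3, and when FPKM was rescaled to the same sum. C1s, the protease that C1r activates, was at 114, 169 and 195 FPKM in the controls, 114, 126 and 124 after LPS, and 135, 109 and 132 after LPS+MIC-1, with overlapping groups and no call (-0.35 ± 0.22, adjusted p = 0.237). C2, the serine protease of the classical C3 convertase, was at 31.5, 36.0 and 36.5 FPKM in the controls, 36.3, 42.7 and 43.2 after LPS, and 46.6, 34.5 and 50.0 after LPS+MIC-1 (0.23 ± 0.19, adjusted p = 0.357). C4b, which supplies the other part of that convertase, was at 145, 261 and 263 FPKM in the controls, 268, 380.5 and 292 after LPS, and 380.1, 317 and 381 after LPS+MIC-1, and its close copy C4a at 9.23, 7.85 and 9.13 FPKM in the controls, 10.2, 22.6 and 11.5 after LPS, and 15.3, 19.8 and 15.1 after LPS+MIC-1. LPS libraries were above control libraries for both C4 genes, but neither passed the test (0.53 ± 0.27, adjusted p = 0.156 for C4b and 0.64 ± 0.29, adjusted p = 0.11 for C4a).

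Of the 4 lectin pathway genes, Mbl1 alone was called. Mbl1, a mannose-binding lectin, was at 194, 131 and 119 FPKM in the controls, 297, 374 and 386 after LPS, and 438, 454 and 454 after LPS+MIC-1 (1.27 ± 0.22, adjusted p = 0.00578). Its relative Mbl2 was at 280.1, 125 and 111 FPKM in the controls, 190.2, 189 and 191 after LPS, and 181, 132 and 201 after LPS+MIC-1, and the control libraries spanned both other groups (0.27 ± 0.34, adjusted p = 0.547). Masp2, the lectin-bound protease that cleaves C4 and C2, was at 271, 166 and 176 FPKM in the controls, 172, 248 and 189.9 after LPS, and 252, 225 and 255 after LPS+MIC-1 (0.01 ± 0.24, adjusted p = 0.979). Masp1, which activates Masp2, ranged from 0.670 to 7.78 FPKM over the 9 libraries, with a Log2FC of 1.46 ± 0.56, adjusted p = 0.071.

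Among 7 tested regulators 5 were higher with LPS, 1 was lower and 1 was not called. C4bp, which dismantles the classical convertase, was at 126, 116 and 101 FPKM in the controls, 321, 302 and 371 after LPS, and 500.2, 319 and 509 after LPS+MIC-1 (1.53 ± 0.23, adjusted p = 0.00335). Serping1, which encodes the C1 inhibitor, was at 334, 228 and 173 FPKM in the controls, 865, 581 and 899.5 after LPS, and 1077, 608 and 1129 after LPS+MIC-1 (1.70 ± 0.34, adjusted p = 0.00875). LPS libraries were above the control libraries for both, by the widest margin in libraries 1 and 3 for Serping1. Clu, which encodes clusterin, an inhibitor of pore assembly, was at 403, 297 and 184 FPKM in the controls, 1571, 874 and 1705 after LPS, and 1865, 1367 and 1935 after LPS+MIC-1 and had the largest Log2FC of the called members (2.24 ± 0.36, adjusted p = 0.00449). Vitronectin, encoded by Vtn and another inhibitor of the pore, was the most abundant member at 2523, 1585 and 1415 FPKM in the controls, 5022, 4823 and 5199 after LPS, and 4499, 5064 and 4732 after LPS+MIC-1 (1.49 ± 0.26, adjusted p = 0.0054). Neither gene's LPS libraries overlapped its controls. Cd55, the membrane protein that speeds decay of convertases, was far less abundant at 1.61, 0.959 and 1.23 FPKM in the controls, 3.88, 4.95 and 3.34 after LPS, and 7.37, 5.46 and 8.39 after LPS+MIC-1 (1.37 ± 0.24, adjusted p = 0.00546).

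Cd59a, which blocks the last step of pore formation on the cell surface, was the 1 member lower with LPS. It stood at 126, 97.8 and 93.4 FPKM in the controls, 34.9, 66.5 and 26.9 after LPS, and 33.9, 60.8 and 33.2 after LPS+MIC-1, and every LPS library was below every control library (-1.39 ± 0.36, adjusted p = 0.0211). Library 2 of both groups given LPS lay closest to the controls. The call was lost without control library 2, control library 3, LPS library 1 or LPS library 3. Cfi, which encodes the protease that inactivates C3b and C4b, was at 132, 140.5 and 114 FPKM in the controls, 189, 170.3 and 208 after LPS, and 217, 145 and 239 after LPS+MIC-1, with LPS above control in every library but no call (0.55 ± 0.22, adjusted p = 0.0841). Cd46 ranged from 0 to 1.59 FPKM and was not tested.

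The receptors for the C5 and C3 fragments were low in whole liver. C5ar1, which calls neutrophils and monocytes to C5a, was at 0.380, 0.528 and 0.221 FPKM in the controls, 3.51, 2.09 and 2.79 after LPS, and 1.91, 2.17 and 1.70 after LPS+MIC-1 (1.90 ± 0.26, adjusted p = 0.00238), and it passed the filter only through the groups given LPS. C3ar1 was at 1.46, 1.99 and 1.12 FPKM in the controls, 0.802, 1.42 and 0.765 after LPS, and 1.05, 0.619 and 0.899 after LPS+MIC-1 (-0.44 ± 0.29, adjusted p = 0.256), and passed only through the control group. Neutrophil markers, of which 7 of 9 were above 1 FPKM, summed to 37.4 to 53.0 FPKM in the control, 349 to 444 in the LPS and 189 to 456 in the LPS+MIC-1 libraries. Most of the sum with LPS was S100a8, at 2.13 to 7.98 FPKM in the control and 228 to 286 in the LPS libraries, whereas Cxcr2, most of the sum in the controls, was at 26.5 to 42.6 FPKM there and at 3.89 to 10.1 with LPS. The part of infiltrating cells in the C5ar1 values was not tested.

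**Figure D2:**
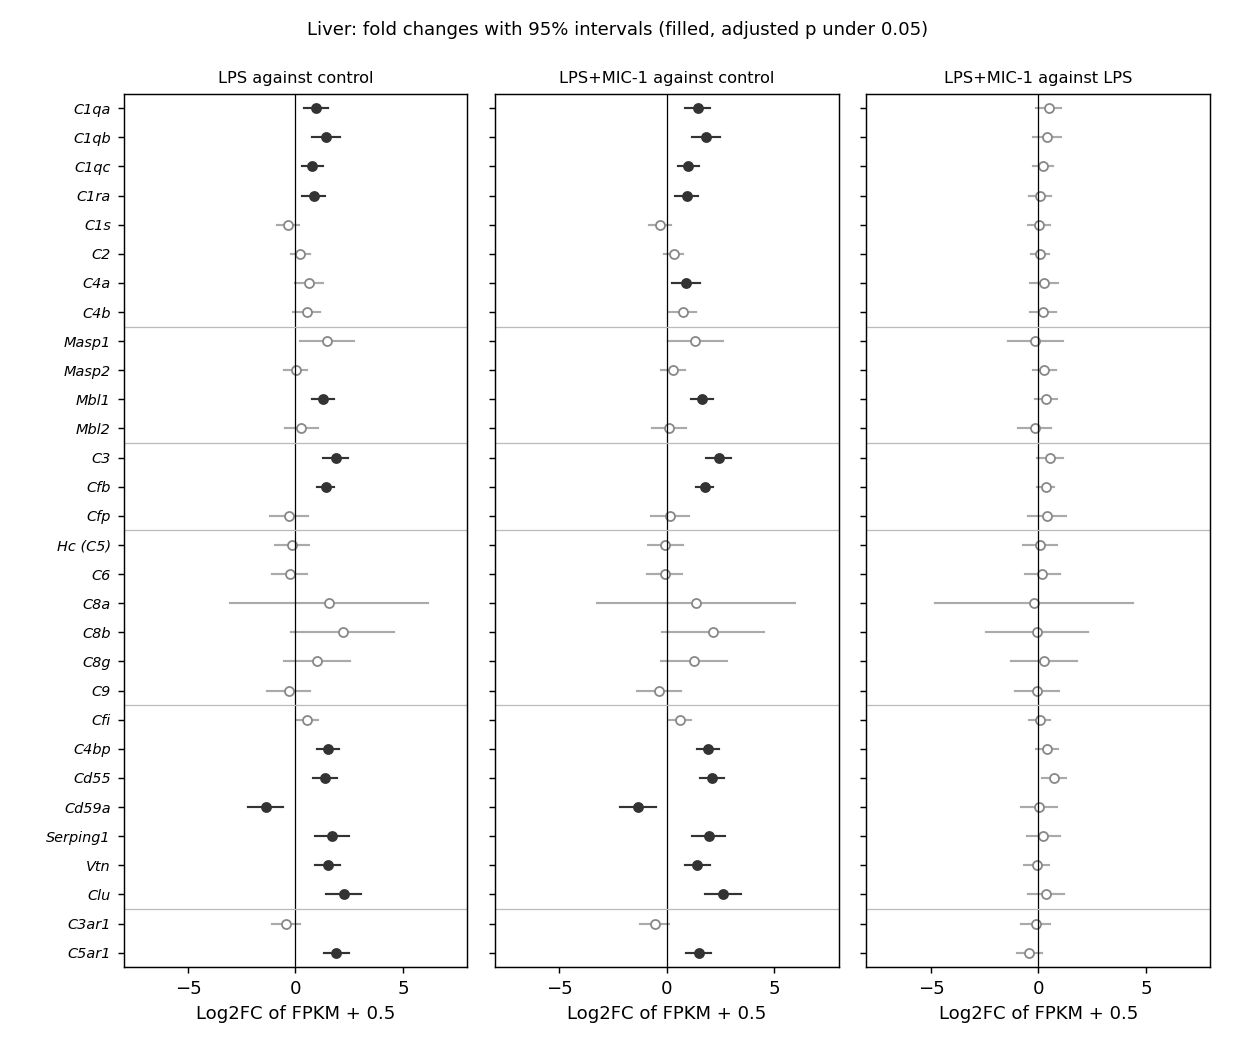
Log2FC of FPKM + 0.5 with its 95% interval for the 30 tested complement genes in liver, in 3 panels for LPS against control, LPS+MIC-1 against control and LPS+MIC-1 against LPS, with filled points for an adjusted p below 0.05. There are 14 filled points in the first panel, 15 in the second and 0 in the third, and the intervals of C8a and C8b are the widest.

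None of the 6 tested terminal pathway genes was called, and for some the libraries of a group differed more than the groups did. C8a, which encodes a chain of the pore component C8, was at 12.5, 4.89 and 0.691 FPKM in the controls, 54.5, 0.746 and 30.5 after LPS, and 51.8, 0.0475 and 48.7 after LPS+MIC-1. C8b, its neighbour on chromosome 4, was at 33.8, 14.0 and 3.46 FPKM in the controls, 136, 15.8 and 84.1 after LPS, and 88.3, 18.4 and 100.3 after LPS+MIC-1. C8g, on chromosome 2, was at 321, 75.7 and 45.1 FPKM in the controls, 241, 131 and 277 after LPS, and 293, 162 and 327 after LPS+MIC-1. In the groups given LPS, library 2 was the lowest for all 3 chains, and among the controls library 3 was. The Log2FC with LPS was 1.56 ± 2.02, adjusted p = 0.561 for C8a, 2.19 ± 1.04, adjusted p = 0.128 for C8b and 0.99 ± 0.67, adjusted p = 0.265 for C8g. Masp1 and C9 were likewise lowest in library 2 of both groups given LPS. C9, which forms the body of the pore, was at 307, 139 and 125 FPKM in the controls, 167, 112 and 145 after LPS, and 181, 73.4 and 185 after LPS+MIC-1 (-0.32 ± 0.45, adjusted p = 0.587).

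C6 was at 81.9, 61.3 and 52.3 FPKM in the controls, 53.2, 56.0 and 50.0 after LPS, and 82.3, 32.1 and 81.4 after LPS+MIC-1 (-0.27 ± 0.36, adjusted p = 0.572), and library 2 was low for it with MIC-1 but not with LPS alone. Hc was at 92.2, 154 and 169 FPKM in the controls, 89.3, 203 and 95.3 after LPS, and 134, 116 and 134 after LPS+MIC-1 (-0.16 ± 0.35, adjusted p = 0.746), with library 2 the highest of the LPS libraries. In a fit without library 2 of both groups given LPS, chosen after the data were seen, 18 members were called with LPS against control, and C8a, C8b, Masp1 and Cfi were among them, where 51.6% of all tested genes were called in the same fit. The Log2FC was then 3.24 for C8a (adjusted p = 0.0315), 3.10 for C8b (0.0258), 2.03 for Masp1 (0.00523) and 0.63 for Cfi (0.0153). When libraries 1 and 3 of each of these groups were averaged and counted as 1 sample, also chosen after the data were seen, 6 members were called, namely C3, C4bp, C5ar1, Cd55, Cfb and Clu, against 6.22% of all tested genes.

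**Figure D3:**
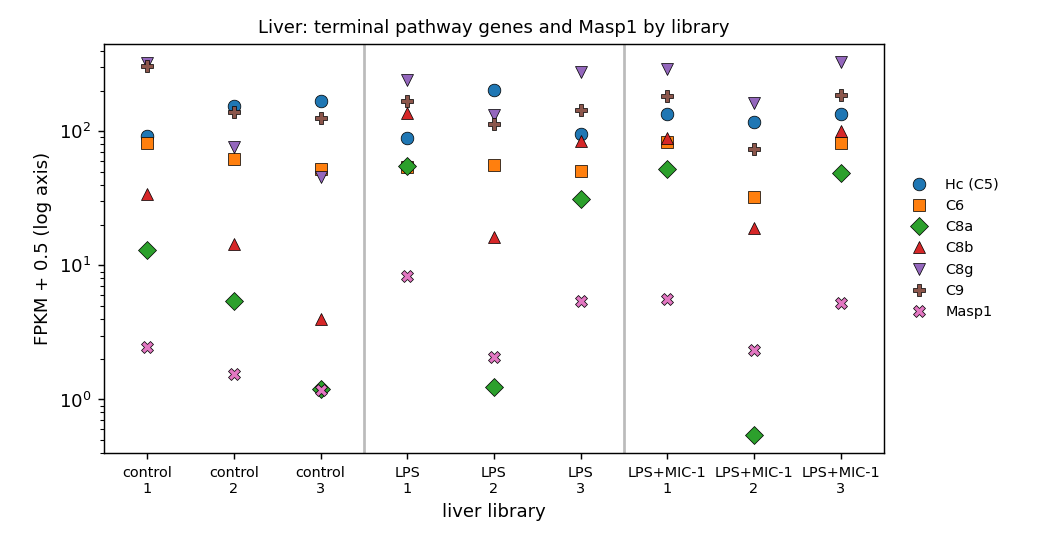
FPKM + 0.5 on a log axis of the 6 measured terminal pathway genes and Masp1 in each of the 9 liver libraries, 1 symbol per gene. C8a was at 0.746 and 0.0475 FPKM in library 2 of the LPS and LPS+MIC-1 groups and at 30.5 to 54.5 FPKM in the libraries 1 and 3, while Hc was at 203 and 116 FPKM in the former.

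Of 24 other genes of the pathway with a row, 17 were tested in liver, and 9 were called with LPS, 6 higher and 3 lower, beside the 34.7% of all tested genes given above. Higher were Cpb2, whose product inactivates C5a and C3a (Log2FC 2.69 ± 0.37, adjusted p = 0.00262), the complement receptor chains Itgam (1.94 ± 0.20, adjusted p = 0.000709) and Itgb2 (1.73 ± 0.30, adjusted p = 0.0054), and Cr1l, Cd93 and Thbd. Lower were Vsig4, a complement receptor of resident liver macrophages (-1.47 ± 0.33, adjusted p = 0.0125), the C5a receptor gene Gpr77 (-1.89 ± 0.36, adjusted p = 0.00733) and the collectin gene Colec10 (-1.20 ± 0.29, adjusted p = 0.0156). Itgam and Vsig4 are also on the marker lists above. Thbd passed the filter only through the groups given LPS and Colec10 only through the control group, the groups where each was high.

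Between LPS+MIC-1 and LPS in liver, 0 of the 30 members were called by limma, and 0% of the 10147 tested genes were. At an unadjusted p below 0.05 there was 1 member, Cd55, where 3.59% of all tested genes had such a p. Its Log2FC was 0.73 ± 0.24, with a 95% interval of 0.19 to 1.27 and an adjusted p of 0.997 in limma. The LPS+MIC-1 libraries all lay above the LPS libraries for 6 of the 30 members, C1qa, C1qb, C3, Cd55, Cfb and Mbl1, and below them for 0, where 5.1% of all tested genes lay above and 4.64% below, 9.75% in all. C3 was 2468 ± 218 FPKM (SD, n = 3) with LPS and 3621 ± 662 with LPS+MIC-1. Cd55 went from 4.06 ± 0.821 to 7.07 ± 1.49 FPKM and Mbl1 from 352 ± 48.3 to 449 ± 9.19 FPKM. The Log2FC was 0.54 for C3 with an interval of -0.05 to 1.13, 0.34 for Cfb (-0.05 to 0.74), 0.48 for C1qa (-0.10 to 1.05), 0.40 for C1qb (-0.26 to 1.05) and 0.36 for Mbl1 (-0.15 to 0.87). When FPKM was rescaled to the same sum per library, the Log2FC of these 6 ranged from 0.05 for Cfb to 0.46 for Cd55. As a share of the summed FPKM, C3 spanned 0.2608 to 0.3184% across the LPS libraries. Its LPS+MIC-1 libraries spanned 0.2855 to 0.3882%, so on that scale the C3 ranges overlapped. On the same scale the LPS and LPS+MIC-1 ranges of C1qa, C1qb, Cd55, Cfb and Mbl1 overlapped as well. That scaling moved the median Log2FC of all genes from -0.01 to -0.26. The same LPS libraries enter this comparison and that of LPS with control.

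Vtn, the most abundant member, was at 5015 ± 188 FPKM with LPS and 4765 ± 284 with LPS+MIC-1 (Log2FC -0.07 ± 0.26, interval -0.66 to 0.51). Cd59a was at 42.8 ± 20.9 and 42.6 ± 15.7 FPKM, a Log2FC of 0.04 ± 0.36 with an interval of -0.79 to 0.87. C5ar1 was at 2.79 ± 0.713 and 1.92 ± 0.236 FPKM (-0.42 ± 0.26, interval -1.01 to 0.16). These intervals reach 0.5 or more in Log2FC on at least 1 side, so the comparison does not show equal expression.

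Against control, LPS+MIC-1 livers had 15 of the 30 members called, 14 higher and 1 lower, where 36.4% of all tested genes were called, 20.1% higher and 16.3% lower. C4a was the gene beyond the 14 of the comparison of LPS with control (0.89 ± 0.29, adjusted p = 0.0409), and its call was kept in only 2 of 9 fits that left out a library, those without LPS library 1 or 2. Clu had a Log2FC of 2.60 ± 0.36, adjusted p = 0.00234, C3 of 2.41 ± 0.26, adjusted p = 0.000943, Cd55 of 2.10 ± 0.24, adjusted p = 0.00114 and Serping1 of 1.94 ± 0.34, adjusted p = 0.00499. The other 9 higher genes besides C4a had Log2FC values from 0.93 for C1ra to 1.92 for C4bp, with adjusted p-values from 0.000646 for Cfb to 0.0163 for C1ra. Cd59a was lower (-1.35 ± 0.36, adjusted p = 0.0218). The Cd59a and C1ra calls were lost without control library 2, control library 3, LPS+MIC-1 library 1 or LPS+MIC-1 library 3. With FPKM rescaled to the same sum the split was 11 higher and 3 lower: the calls of C1qc, C1ra and C4a were lost, while C1s and C3ar1 were called lower. With that scaling 41.6% of all tested genes were called, 7.13% higher and 34.4% lower. No terminal gene was called over the 9 libraries. Without library 2 of both groups given LPS 20 members were called, against 45.3% of all tested genes, C8a (Log2FC 3.54, adjusted p = 0.0271) and C8b (2.92, adjusted p = 0.0352) among them.

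RAW264.7 macrophages expressed a much smaller part of the system. Of the 32 members with a row, 9 had a mean above 1 FPKM, namely C1ra, Masp2, C3, Cfb, Cfp, Cd59a, Clu, C3ar1 and C5ar1. All members together took 0.0622 to 0.0928% of the summed FPKM in any macrophage library. The other 23 were low, and C1qa, C1qb and C1qc, for example, did not exceed 0.974 FPKM in any library. C8a, C8b, Masp1, Cfi and Cfd were listed at 0 in all 9. Vtn, at 0.293 to 1.04 FPKM, was the highest of the 23 by mean, and Alb, a hepatocyte gene, was also measured in these cells at the low level given above. The part of carried-over reads or RNA in such low values was not tested.

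**Figure D4:**
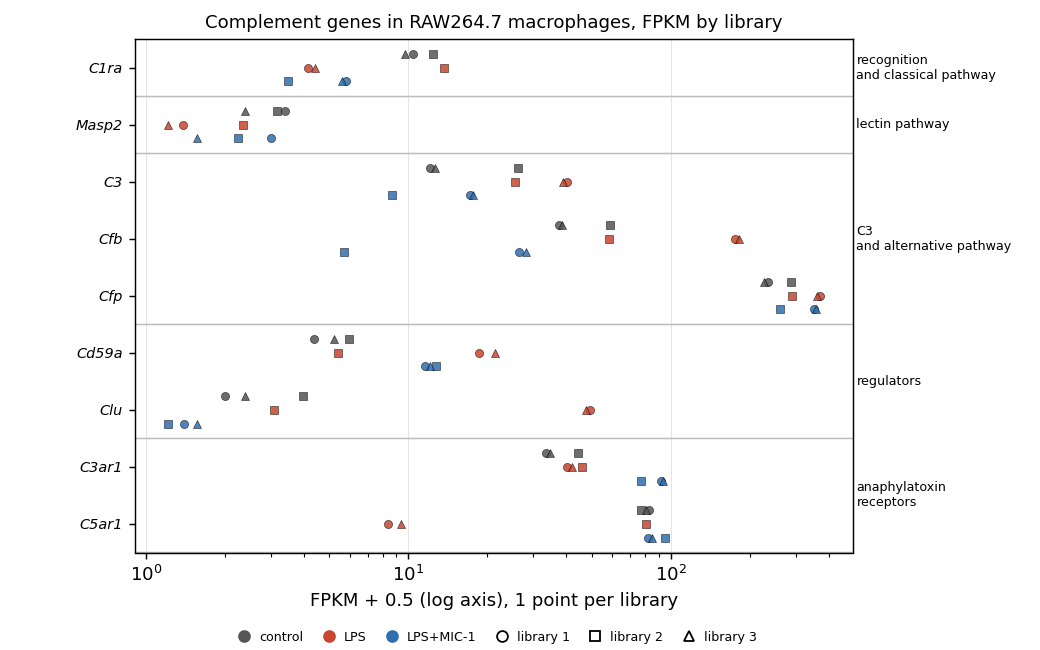
FPKM + 0.5 on a log axis for the 9 complement genes tested in RAW264.7 macrophages, 1 point per library, with colours for the 3 groups and shapes for the library number. LPS library 2 lies within the control range for C5ar1, Clu, Cfb, C3 and Cd59a and just above it for C1ra, apart from LPS libraries 1 and 3 for these 6.

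Over all 9 macrophage libraries, 0 of the 9 members differed between LPS and control by limma, as did 0% of the 9905 tested genes. At an unadjusted p below 0.05 there were 6 of the 9, where 49.8% of all tested genes had such a p. Without LPS library 2, 8 of the 9 members were called, 5 higher and 3 lower, where 75.2% of all tested genes were called, 36.9% higher and 38.2% lower. With FPKM rescaled to the same sum the 8-library split was 2 higher (Cd59a, Clu) and 5 lower (C1ra, C3ar1, C5ar1, Cfp, Masp2), where 82.8% of all tested genes were called, 11.8% higher and 71% lower. The 8-library fit rests on 2 LPS libraries that stood close together, and an exact permutation test of 2 against 3 libraries cannot go below p = 0.1.

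Clu had the highest Log2FC. Its values were 1.50, 3.46 and 1.89 FPKM in the controls, 49.0, 2.58 and 47.1 after LPS, and 0.895, 0.718 and 1.07 after LPS+MIC-1, so LPS libraries 1 and 3 were far above the controls and library 2 was among them. The Log2FC of LPS against control was 2.86 ± 0.96, adjusted p = 0.0777 over 9 libraries and 4.19 ± 0.27, adjusted p = 6.21e-06 over 8. Cfb was at 36.9, 58.0 and 38.1 FPKM in the controls, 175, 57.6 and 181 after LPS, and 25.9, 5.21 and 27.6 after LPS+MIC-1, with the same split of the LPS libraries (1.49 ± 0.67, adjusted p = 0.109 over 9 and 2.03 ± 0.64, adjusted p = 0.0201 over 8). C3 was at 11.6, 25.6 and 12.1 FPKM in the controls, 39.7, 25.1 and 38.2 after LPS, and 16.7, 8.14 and 17.2 after LPS+MIC-1 (1.11 ± 0.39, adjusted p = 0.0777 over 9 and 1.31 ± 0.41, adjusted p = 0.0188 over 8). In the 8 libraries both C3 and Cfb lost the call when FPKM was rescaled to the same sum, with Log2FC values of 0.34 for C3 and 1.04 for Cfb. The FPKM of LPS libraries 1 and 3 summed to 1137533 and 1132904, and of no other macrophage library to more than 652486. Over the 9 libraries, that scaling moved the median Log2FC of all genes from -0.03 to -0.66.

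Cfp, the most abundant member in these cells, was at 234, 287 and 226 FPKM in the controls, 371, 290.4 and 362 after LPS, and 351, 260.5 and 358 after LPS+MIC-1. Every LPS library was above every control library, library 2 by the least (0.45 ± 0.18, adjusted p = 0.0824 over 9 and 0.56 ± 0.16, adjusted p = 0.0119 over 8), but the direction turned with FPKM rescaled to the same sum, to -0.23 over 9 libraries and -0.43 over 8. Cd59a was at 3.88, 5.43 and 4.72 FPKM in the controls, 18.0, 4.88 and 20.9 after LPS, and 11.1, 12.2 and 11.6 after LPS+MIC-1 (1.32 ± 0.46, adjusted p = 0.0777 over 9 and 1.95 ± 0.13, adjusted p = 8.57e-06 over 8). It was higher in LPS libraries 1 and 3 than in any control.

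C5ar1 had the lowest Log2FC. It was at 81.9, 76.7 and 80.1 FPKM in the controls, 7.86, 80.2 and 8.90 after LPS, and 81.1, 94.7 and 84.6 after LPS+MIC-1, about as high with MIC-1 as in the controls, and low in LPS libraries 1 and 3 alone. The Log2FC of LPS against control was -2.11 ± 0.75, adjusted p = 0.0777 over 9 libraries and -3.17 ± 0.09, adjusted p = 4.4e-07 over 8. C1ra was at 9.92, 12.0 and 9.21 FPKM in the controls, 3.66, 13.2 and 3.90 after LPS, and 5.28, 2.99 and 5.10 after LPS+MIC-1 (-0.78 ± 0.44, adjusted p = 0.18 over 9 and -1.34 ± 0.22, adjusted p = 0.000856 over 8). Masp2 was near the filter at 2.88, 2.65 and 1.89 FPKM in the controls, 0.881, 1.84 and 0.712 after LPS, and 2.49, 1.74 and 1.06 after LPS+MIC-1 (-0.90 ± 0.33, adjusted p = 0.0777 over 9 and -1.19 ± 0.28, adjusted p = 0.00543 over 8), lower in every LPS library than in any control. C3ar1 was at 33.0, 43.9 and 34.2 FPKM in the controls, 39.7, 45.4 and 41.7 after LPS, and 91.5, 76.5 and 92.8 after LPS+MIC-1, and its LPS and control libraries overlapped (0.20 ± 0.14, adjusted p = 0.276 over 9 and 0.15 ± 0.14, adjusted p = 0.362 over 8), but with FPKM rescaled to the same sum its Log2FC was -0.48 over 9 libraries and -0.83 over 8, the latter called (adjusted p = 0.000325).

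Between LPS+MIC-1 and LPS over 9 libraries, 4 of the 9 members were called, 3 lower (C3, Cfb, Clu) and 1 higher (C3ar1), where 21.6% of all tested genes were called, 11.4% lower and 10.2% higher. Clu was at 0.894 ± 0.175 FPKM (SD, n = 3) with LPS+MIC-1 against 32.9 ± 26.3 with LPS, a Log2FC of -3.80 ± 0.96, adjusted p = 0.0294 over 9 libraries and -5.13 ± 0.27, adjusted p = 5.22e-06 over 8. Cfb was at 19.6 ± 12.5 against 138 ± 69.7 FPKM (-2.93 ± 0.67, adjusted p = 0.0211 over 9 and -3.47 ± 0.64, adjusted p = 0.00184 over 8). C3 was at 14.0 ± 5.09 against 34.3 ± 8.04 FPKM (-1.31 ± 0.39, adjusted p = 0.0465 over 9 and -1.51 ± 0.41, adjusted p = 0.0116 over 8). For these 3 genes every LPS+MIC-1 library was below every LPS library, LPS library 2 included, and for C3ar1 and C5ar1 every one was above, where 36.1% of all tested genes did not overlap, 18.2% lower and 17.9% higher. The threshold of the study for macrophages was an adjusted p below 0.01 and an absolute Log2FC above 1. At that threshold, 1 member was called in limma over 9 libraries, C3ar1, against 3.87% of all tested genes. Over 8 libraries it was 4 members, against 23.3% of all tested genes.

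C3ar1 was at 86.9 ± 9.04 FPKM with LPS+MIC-1 against 42.3 ± 2.89 with LPS (1.03 ± 0.14, adjusted p = 0.0034 over 9 and 1.08 ± 0.14, adjusted p = 0.000272 over 8), and its call was kept in all 9 fits that left out a library. The 9-library C3 and Clu calls were kept in only 2 of those 9 fits, those without control library 2 or LPS library 2, and the Cfb call was lost without LPS library 1 or LPS library 3. With FPKM rescaled to the same sum the C3 call was lost over 9 libraries and over 8.

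Over 8 libraries 7 of the 9 members were called between LPS+MIC-1 and LPS, 3 higher and 4 lower, where 68% of all tested genes were called, 34% higher and 34.1% lower. C5ar1 joined C3ar1 on the higher side (3.30 ± 0.09, adjusted p = 7.11e-07, against 2.23 ± 0.75, adjusted p = 0.0678 over 9), as did Masp2 (0.76 ± 0.28, adjusted p = 0.0425). Cd59a was lower (-0.71 ± 0.13, adjusted p = 0.00212), against -0.09 over 9, but the sign turned with FPKM rescaled to the same sum, to 0.40 over 9 libraries and 0.06 over 8. With that scaling the 8-library split was 5 higher and 2 lower (Cfb and Clu), with Cfp and C1ra then called higher, where 77.8% of all tested genes were called, 67.3% higher and 10.5% lower. C1ra and Cfp were not called in this comparison with the deposited scaling over 9 or 8 libraries.

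Against control, LPS+MIC-1 macrophages had 1 member called over 9 libraries, C3ar1 (1.23 ± 0.14, adjusted p = 0.00139), where 24.8% of all tested genes were called, 11.8% higher. Over 8 libraries 4 were called, where 60.3% were, 28.1% higher and 32.2% lower, with C3ar1 and Cd59a higher and C1ra and Clu lower. LPS library 2 is in neither group and enters only through the shared estimate of spread. The Log2FC was 1.24 ± 0.46 for Cd59a (adjusted p = 0.0857 over 9 and 9.26e-05 over 8), -1.16 ± 0.44 for C1ra (0.0918 and 0.00159) and -0.94 ± 0.96 for Clu (0.506 and 0.0106). Every LPS+MIC-1 library was below every control library for 3 members, C1ra, Cfb and Clu, and above for 2, C3ar1 and Cd59a, where 66.4% of all tested genes did not overlap, 34.9% lower and 31.4% higher. Cfb stood at -1.44 ± 0.67 (0.153 and 0.0598), C3 at -0.20 ± 0.39 and C5ar1 at 0.12 ± 0.75, and the last 2 overlapped the controls.

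Of 6 tested other pathway genes in macrophages, 1 was called between LPS+MIC-1 and LPS over 9 libraries, Thbd, which was higher (2.61 ± 0.20, adjusted p = 0.000553), and 5 were over 8, beside the 21.6% and 68% of all tested genes given above. Thbd passed the filter only through the LPS+MIC-1 group, where it was high. Against control, LPS+MIC-1 had Itgam (2.26 ± 0.32, adjusted p = 0.00303) and Thbd (2.16 ± 0.20, adjusted p = 0.000622) higher and C1qbp (-1.04 ± 0.19, adjusted p = 0.00738) lower. Between LPS and control 0 of the 6 were called over 9 libraries and 5 over 8, among them Itgb2 (2.37 ± 0.17, adjusted p = 9.24e-06), where 0% and 75.2% of all tested genes were called.

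**Figure D5:**
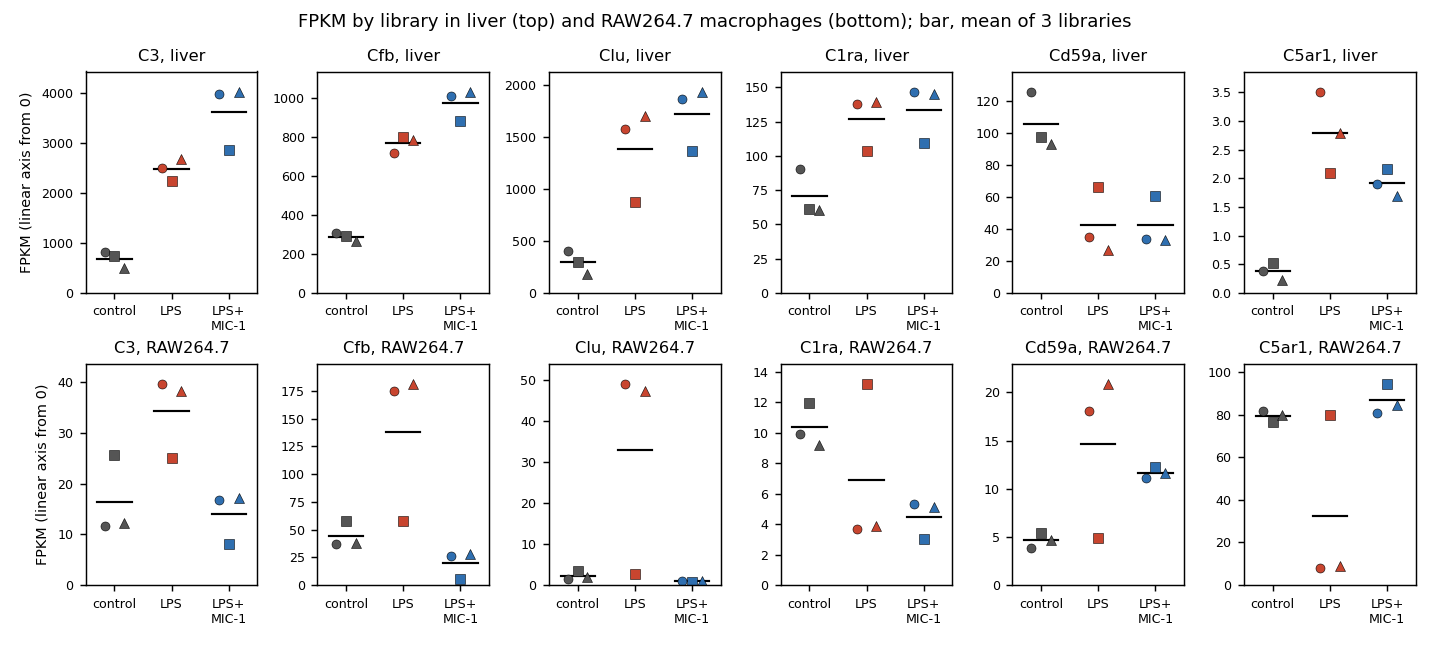
FPKM on linear axes from 0 for 6 complement genes in liver (top row) and RAW264.7 macrophages (bottom row), 1 point per library, shapes for the library number and a bar for the mean of 3 libraries. C3 and Cfb are highest with LPS+MIC-1 in liver and with LPS in macrophages, and the point near the controls among the macrophage LPS libraries is library 2.

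Set side by side, the tissues differed in direction for several members. C1ra was higher in LPS+MIC-1 than in control liver (Log2FC 0.93) and lower in macrophages (-1.16), and Cd59a was lower in liver (-1.35) and higher in macrophages (1.24). With LPS alone C5ar1 was higher in liver (1.90) and lower over 8 macrophage libraries (-3.17). In liver C5ar1 passed the filter only through the groups given LPS, where it was high. Over 9 macrophage libraries none of these 3 macrophage values passed the limma test, and over 8 all 3 did. The tables were normalized separately, doses and routes were not matched, and the difference between tissues was not tested.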

How the data were processed

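RNA sequencing gave 9 mouse liver and 9 RAW264.7 libraries. Reads were assigned by the authors to an mm9 RefSeq transcript index with kallisto 0.45.0, collapsed to genes with tximport, and turned into the deposited FPKM with DESeq2 1.20.0, whose size factors scale the libraries. The authors also deposited comparison tables, from which only the mean normalized count (a signal averaged over libraries) was read for depth; their fold changes and p-values were not used. Column names gave the treatment alone, and 0 columns were left without a group.

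FPKM was transformed to log2(FPKM + 0.5). Genes whose FPKM averaged more than 1 in a table were fitted with limma 3.58.1 (R 4.3.3; 3 groups in 1 fit, eBayes with a trend), and p-values were adjusted by the Benjamini-Hochberg method over all tested genes and called below 0.05. Macrophage fits were repeated without LPS library 2. Intervals are 95%. Ranges of groups were compared library by library, and exact permutation tests were two-sided. The scripts were tested on simulated data. Tables were made with Python 3.11.15, pandas 2.3.3 and numpy 2.4.6 and figures with matplotlib 3.10.9.

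The members and the lists of other pathway genes and markers were chosen with earlier results of these data known. Members called, or at 10 FPKM or more in a group mean, were described in every library and the others by range and count. Other pathway genes were named only where called, and 1 gene of that list is not reported here. Alternatives changed the scaling, pseudocount, filter, samples, prior and threshold. Promoter windows came from RefSeq on GRCm38.p6. Gene positions and shared 31-base stretches came from GENCODE gene models and transcripts on mm9.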

Additional observations from a re-analysis of the deposited data

Results flagged for a closer look

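For 10 pairs of values, the treated libraries all lay on one side of the reference group in liver and on the other in macrophages. Ranges of LPS+MIC-1 and control did not overlap for 54.6% of all tested genes in liver and 66.4% in macrophages. For LPS and control the shares were 45% and, without LPS library 2, 85.6%. For LPS+MIC-1 and LPS they were 9.75% and 36.1%. The share of all genes separating in opposite directions was not computed. The difference between the tissues was not tested, the tables were normalized separately, and doses and routes differed. None of the 10 changed sign in either tissue when FPKM was rescaled to the same sum.

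With LPS against control, in the macrophage fit without LPS library 2, the Log2FC of C1ra was 0.85 in liver and -1.34 in macrophages. For C5ar1 it was 1.90 and -3.17, and for Cd59a -1.39 and 1.95. C5ar1 passed the liver filter only through the groups given LPS, where it was high. With all 9 macrophage libraries the LPS and control values of these 3 genes overlapped.

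With LPS+MIC-1 against LPS, the Log2FC of C3 was 0.54 in liver and -1.31 in macrophages, and that of Cfb was 0.34 and -2.93. The liver values did not pass the test, and the C3 and Cfb liver ranges overlapped when taken as shares of the summed FPKM.

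With LPS+MIC-1 against control, C1ra stood at 0.93 in liver and -1.16 in macrophages, Cfb at 1.76 and -1.44, and Clu at 2.60 and -0.94. C3ar1 stood at -0.57 and 1.23, and Cd59a at -1.35 and 1.24. Of the macrophage values, C3ar1 alone passed the test over 9 libraries, and C3ar1 in liver did not pass it. C3ar1 passed the liver filter only through the control group, where it was high.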

How the results depend on the processing

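No paired analysis was possible because the columns carry the treatment and no replicate number. Values under an alternative were tallied for members in the comparisons where they were called, over 9 libraries or over 8 in macrophages. The tally also held the liver members whose LPS+MIC-1 libraries all lay above LPS, and liver C8a, C8b, Masp1 and Cfi against control. Other uncalled members were left out of it. Of these values, 1043 kept direction and side of the threshold, 77 lost the call, 41 gained it and 8 changed sign. In liver, 10 to 17 members were called with LPS against control, 12 to 17 with LPS+MIC-1 against control and 0 with LPS+MIC-1 against LPS when each library was left out in turn. In macrophages the ranges were 0 to 8, with 8 reached without LPS library 2, then 1 to 4 for LPS+MIC-1 against control and 1 to 7 for LPS+MIC-1 against LPS. The share of all tested genes called is given above for macrophages without LPS library 2. For the other left-out libraries it was not computed.

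Of the liver counts, that of LPS against control fell to 6 when libraries 1 and 3 of the groups given LPS were averaged, an alternative chosen after the data were seen. In macrophages, LPS+MIC-1 against LPS gave 1 member at the threshold of the study, 1 with only the 2 groups compared and 0 with libraries 1 and 3 averaged. LPS+MIC-1 against control gave 2 with FPKM rescaled to the same sum, 2 with no filter, 4 with only the 2 groups compared and 0 with libraries 1 and 3 averaged. Rescaling without LPS library 2, also chosen after the data were seen, gave 7 members with LPS against control, 7 with LPS+MIC-1 against LPS and 5 with LPS+MIC-1 against control. Averaging leaves fewer samples, and for the other settings the cause was not tested. Shares of all tested genes are given above for the averaged liver fit and the threshold of the study. They are also given for rescaling without LPS library 2 in LPS against control and LPS+MIC-1 against LPS. For the other settings they were not computed, so those counts cannot be set against all genes.

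With FPKM rescaled to the same sum, which moved the median of all genes, signs turned in liver for 3 of 30 members with LPS against control, 13 with LPS+MIC-1 against LPS and 5 with LPS+MIC-1 against control, none of them called under either scaling. In macrophages they turned for 2, 3 and 1 of 9 over 9 libraries, none called, and for 2, 2 and 1 over 8. Of the latter, C3ar1 and Cfp with LPS against control and Cd59a and Cfp with LPS+MIC-1 against LPS were called under at least 1 scaling. Cd59a in macrophages, LPS+MIC-1 against LPS, went to 0.40 with rescaled FPKM, 0.25 with libraries averaged and 0.063 rescaled without LPS library 2, and ranged from -0.71 to 0.28 when a library was left out, with 0.18 without LPS library 1. Cfp in macrophages, LPS against control, went to -0.23 rescaled and -0.43 rescaled without LPS library 2. Cfi in liver, LPS+MIC-1 against control, went to -0.047 rescaled.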
